A study of Homo sapiens with 6 samples.

Results

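The hedgehog pathway was followed through 9 genes, chosen by name for their roles: the co-receptors BOC and GAS1, the receptor PTCH1, the ligand trap HHIP, the transducers SMO and SUFU, and the transcription factors GLI1, GLI2 and GLI3. All 9 were found among the 60554 gene identifiers of the count files, and all 9 were among the 18683 genes that passed the filter on low counts. The cells were Daoy, a human cell line established from a medulloblastoma of the cerebellum, and RNA was sequenced from 6 libraries. In 3 of them (ZFmut) the cells had received lentivirus with a zinc-finger domain mutant (R363L) of ZBTB7B, and in the other 3 (WT) lentivirus with wild-type ZBTB7B, for 72 hr with a multiplicity of infection of 15, within 4 days of culture in medium with 10% serum. Both groups therefore overexpressed a form of ZBTB7B on top of the cells' own gene, all libraries came from a single line, and no library without the transgene was among the samples. ZBTB7B, a transcription factor with zinc fingers, directs developing T cells to the CD4 lineage, and the comparison asks which transcripts depend on its intact zinc-finger domain.

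Hedgehog ligands bind PTCH1, with help from the co-receptors BOC, GAS1 and CDON. Without ligand, PTCH1 holds the membrane protein SMO inactive, and SUFU keeps the GLI proteins in the cytoplasm, where GLI3 in particular is cut into a repressor. With ligand, SMO accumulates in the primary cilium and releases GLI2 and GLI3 as activators, which switch on GLI1, PTCH1 and HHIP. The granule cell precursors of the cerebellum divide in response to SHH, and one molecular group of medulloblastoma is driven by mutations that leave this pathway on.

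Reads assigned to genes ranged from 22236214 to 102730428 per library in ZFmut and from 28429913 to 56873989 in WT. ZBTB7B, the transgene, reached 555, 547 and 627 CPM in ZFmut replicates 1 to 3 and 899, 863 and 951 CPM in WT replicates 1 to 3, where CPM is the gene's count scaled by the library total after TMM normalisation. The ZFmut libraries thus held less ZBTB7B transcript (log2 difference -0.65 ± 0.06, SE of the fit, edgeR adjusted p = 1.39e-06), and this count adds the transgene to the cells' own transcript. Every difference below is ZFmut minus WT on the log2 scale with n = 3 libraries a group. The part of this unequal dose in any other difference was not tested. Of 15 markers of the cerebellar granule lineage and of hedgehog-driven medulloblastoma, 11 passed the filter. Of these, 2 were higher and 1 lower at an edgeR adjusted p under 0.05 (27.3% called, against 35.6% of all tested genes). The 15 summed to 364 to 379 CPM in ZFmut and 358 to 377 CPM in WT. YAP1 and SFRP1 held most of this sum, at 128.8 and 102.1 CPM in ZFmut and 140.3 and 88.3 CPM in WT. PAX6 had 18.9 CPM in ZFmut and 17.6 CPM in WT, and MEIS1 12.3 and 11.8 CPM. ZIC1, ZIC2, PAX6 and MEIS1 were detected, while the granule precursor factor ATOH1 had between 0 and 4 reads per library, and BARHL1, NEUROD1 and CNTN2 were also under the filter. SFRP1 was among the higher ones (0.21 ± 0.05, edgeR adjusted p = 0.00613), and NHLH1 was the lower one (-0.62 ± 0.20, 0.0262). For NHLH1 the call ended when genes were not filtered (edgeR adjusted p = 0.0660), in DESeq2 (0.104) and without ZFmut replicate 3 (0.0983), WT replicate 2 (0.0971) or WT replicate 3 (0.0856). Markers of immune, vascular, glial and neuronal cells were scarce, at 20.7 to 25.1 CPM in ZFmut and 19.1 to 20.6 CPM in WT for the sum of 14. Of the 11 tested, 4 were higher and 2 lower (54.5% called, against 35.6% of all tested genes), with a median of 0.37. PECAM1 (2.10), SNAP25 (0.98), GFAP (0.80) and OLIG2 (0.64) were higher and AQP4 (-4.05) and MBP (-0.94) lower. These are differences between low levels. A gene can pass the low-count filter through the libraries of 1 group alone, so at such levels the called share is partly open to the filter. SNAP25 had 2.53 ± 0.425 CPM in ZFmut and 1.34 ± 0.222 CPM in WT (SD), and GFAP 0.893 ± 0.321 CPM in ZFmut and 0.476 ± 0.112 CPM in WT. Of the immune markers, PTPRC, CD3E and CD68 had 0 to 7 reads per library, and CD14 had 16 to 62 and did not pass (edgeR adjusted p = 0.752). In bulk RNA, fewer cells that express a gene and less RNA per cell cannot be told apart.

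2 promoter windows are shown, that of HHIP because an antisense start lies close by and that of PTCH1 because it holds a GLI motif. Both come from RefSeq on GRCh38.p14 and run from 250 bases before a transcript start to 50 bases from it. The HHIP window lies at chr4:144645906-144646205 on the plus strand, and the capitals mark the 136 bases between the HHIP start and the start of HHIP-AS1, a noncoding RNA transcribed the other way. The composition of the HHIP window is 72.7% G and C with 36 CpG dinucleotides. The PTCH1 window lies at chr9:95509217-95509516 on the minus strand, at a start within the gene, and the capitals mark a GLI motif that begins 172 bases before the start.
HHIP: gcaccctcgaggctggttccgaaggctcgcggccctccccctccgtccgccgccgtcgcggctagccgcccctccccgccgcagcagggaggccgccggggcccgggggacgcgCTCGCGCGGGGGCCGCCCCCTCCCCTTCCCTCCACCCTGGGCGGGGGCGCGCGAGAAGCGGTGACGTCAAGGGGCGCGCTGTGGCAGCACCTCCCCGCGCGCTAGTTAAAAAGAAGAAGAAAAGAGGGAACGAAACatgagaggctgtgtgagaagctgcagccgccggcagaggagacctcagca
PTCH1: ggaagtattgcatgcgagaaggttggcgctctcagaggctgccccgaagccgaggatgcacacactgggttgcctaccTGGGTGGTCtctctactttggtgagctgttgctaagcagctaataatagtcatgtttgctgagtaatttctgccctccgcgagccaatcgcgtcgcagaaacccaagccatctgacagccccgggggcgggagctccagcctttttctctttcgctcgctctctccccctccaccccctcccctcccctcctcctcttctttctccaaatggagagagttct
The GLI motif searched was GACCACCCA on either strand, the sequence bound by the GLI zinc fingers. RefSeq windows matched 7 of the 9 genes, with 13 windows in all, and this PTCH1 window was the single window of the 13 with the motif, against 0.236% of all 35116 windows. A motif of the ZBTB7 family, GACCACCGA, differs from it in a single letter and overlaps it in the shared core GACCACC. It was in 0 of the 13 windows and in 0.0826% of all windows, and the core was in the same PTCH1 window alone and in 2.98% of all. A match is a match of letters, and no binding was measured in these libraries.

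4 of the 9 genes passed the test: HHIP and SMO were higher in ZFmut, and GLI1 and PTCH1 were lower. The other 5, BOC, GAS1, SUFU, GLI2 and GLI3, did not pass. GLI1, PTCH1 and HHIP are all transcribed in response to the pathway, and here HHIP went up where GLI1 and PTCH1 went down. Over all tested genes 35.6% passed, 17.2% as higher (3207) and 18.4% as lower (3442) (edgeR's quasi-likelihood test, adjusted p under 0.05 after Benjamini and Hochberg), and the share among the 9 is near that background. With offsets for GC content and length and a replicate block, the split over all genes was 4765 higher and 3395 lower. The values of the 3 ZFmut libraries and of the 3 WT libraries did not overlap for 6 of the 9, against 47.2% of all tested genes. Without ZFmut replicate 3, 1 member was higher. The lower members were 1 without ZFmut replicate 1, 2 or 3 or WT replicate 2, and 0 without WT replicate 3. The median difference of the 9 was 0.015, against -0.0041 over all tested genes.

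**Figure D1:**
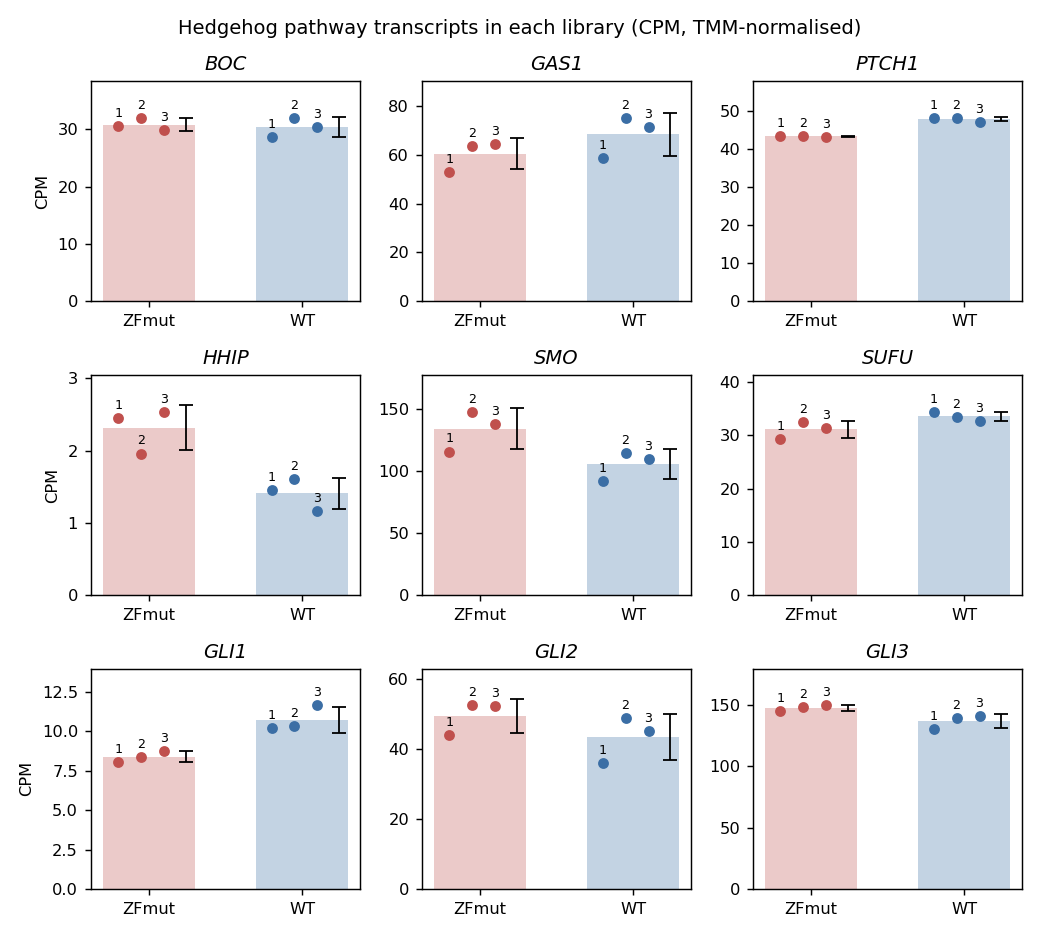
CPM of the 9 genes in each library, with the y axis of each panel starting at 0, ZFmut on the left and WT on the right, numbered points for replicates 1 to 3, bars for the group mean and whiskers for the SD (n = 3). The HHIP, SMO, GLI1 and PTCH1 points of the 2 groups are separate, while those of BOC, GAS1 and GLI2 overlap.

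GLI1 is both an effector of the pathway and one of its most direct transcriptional readouts. The gene (ENSG00000111087.9, GRCh38 chromosome 12, 57460135 to 57472262, plus strand) had 8.08, 8.39 and 8.74 CPM in ZFmut replicates 1 to 3, against 10.2, 10.3 and 11.6 CPM in WT replicates 1 to 3. All 3 ZFmut values lay under all 3 WT values, with 181 to 890 reads behind each ZFmut value and 296 to 586 behind each WT value. The difference was -0.34 ± 0.09 (edgeR adjusted p = 0.00734), or 0.790 times the WT level. The call ended without WT replicate 3, the highest library (-0.28, edgeR adjusted p = 0.0510). In every fit that kept all 6 libraries GLI1 passed, with adjusted p from 2.17e-05 to 0.0229.

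PTCH1, the receptor that holds SMO inactive and the gene whose window with a GLI motif is shown above, differed by little. The gene (ENSG00000185920.15, chromosome 9, 95442980 to 95517057, minus strand) had 43.3, 43.3 and 43.2 CPM in ZFmut, against 48.0, 48.2 and 47.1 CPM in WT. The 3 values of each group were close to each other and the groups did not overlap. The difference was -0.14 ± 0.05 (edgeR adjusted p = 0.0472), with a 95% interval of -0.26 to -0.03, so the call lies at the threshold. It ended without any 1 of the 6 libraries (edgeR adjusted p from 0.0625 without ZFmut replicate 1 to 0.138 without ZFmut replicate 3), with median-of-ratios (0.0650) or upper-quartile factors (0.0724), in DESeq2 (0.106), with no low-count filter (0.200) and with offsets for GC content and length, where the difference was -0.05 (0.403). A noncoding gene on the other strand, AL161729.1, covers 4.29% of the PTCH1 exons. Reads from that stretch cannot be assigned by strand in a library that does not mark it. Reads that the files class as ambiguous, 7.7 to 8.1% of the total per library, did not enter the gene counts.

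HHIP, the membrane-anchored protein that binds hedgehog ligands and takes them away from PTCH1, had the largest difference of the 9. The gene (ENSG00000164161.9, chromosome 4, 144646021 to 144745271, plus strand) had 2.45, 1.96 and 2.54 CPM in ZFmut replicates 1 to 3, against 1.45, 1.60 and 1.17 CPM in WT replicates 1 to 3. The groups did not overlap, and the reads were few, at 55, 47 and 259 in ZFmut and 42, 91 and 37 in WT. The difference was 0.73 ± 0.17 (edgeR adjusted p = 0.00444), or 1.66 times the WT level with a 95% interval of 0.36 to 1.10 on the log2 scale. The call ended without ZFmut replicate 3, the deepest library (0.62, edgeR adjusted p = 0.0548), and the stricter filter of 5 CPM in 3 libraries leaves HHIP out. HHIP-AS1, looked up because RefSeq places its start in the window shown above and it overlaps 2.97% of the HHIP exons together with a short RNA gene, had 0.312, 0.626 and 0.952 CPM in ZFmut, against 0.449, 0.317 and 0.475 CPM in WT. These groups overlapped and the difference of 0.89 ± 0.35 did not pass (edgeR adjusted p = 0.0619). It was 1.11 without ZFmut replicate 1 (0.0101) and 0.25 without ZFmut replicate 3 (0.724), and it also passed with no low-count filter (0.0270) and with GC and length offsets (0.0358).

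SMO, the membrane protein that carries the signal and the target of hedgehog inhibitors used in the clinic, was higher in ZFmut. The gene (ENSG00000128602.9, chromosome 7, 129188872 to 129213545, plus strand) had 116, 148 and 138 CPM in ZFmut replicates 1 to 3, against 91.9, 115 and 110 CPM in WT replicates 1 to 3. Replicate 1 was the lowest library of each group, and the groups were separated narrowly, by 116.0 in the lowest ZFmut library against 115.1 in the highest WT library. The difference was 0.34 ± 0.09 (edgeR adjusted p = 0.00736), or 1.27 times the WT level. SMO passed in every alternative run, with adjusted p up to 0.0497 without ZFmut replicate 2. With offsets for GC content and length the difference was 0.21 (edgeR adjusted p = 0.00306), and 61.5% of the longest SMO transcript is G or C. An overlapping gene on the other strand, AC011005.4, covers 2.99% of the SMO exons.

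SUFU, the cytoplasmic inhibitor that binds GLI proteins, did not pass. The gene (ENSG00000107882.11, chromosome 10, 102503987 to 102633535, plus strand) had 29.4, 32.5 and 31.5 CPM in ZFmut, against 34.5, 33.5 and 32.8 CPM in WT. The groups did not overlap, and the difference was -0.11 ± 0.06 with a 95% interval of -0.24 to 0.03 (edgeR adjusted p = 0.199). With GC and length offsets it was -0.18 and passed (edgeR adjusted p = 0.0109).

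GLI2, the main activator of the family, and GLI3, its main repressor, did not pass. GLI2 (ENSG00000074047.20, chromosome 2, 120735623 to 120992653, plus strand) had 44.0, 52.6 and 52.3 CPM in ZFmut replicates 1 to 3, against 36.1, 49.1 and 45.3 CPM in WT replicates 1 to 3. Replicate 1 was again the lowest of each group, and the groups overlapped. The difference was 0.19 ± 0.10 with a 95% interval of -0.02 to 0.39 (edgeR adjusted p = 0.145). It passed without ZFmut replicate 1 (0.27, edgeR adjusted p = 0.0237) or WT replicate 2 (0.29, 0.0380) and with no low-count filter (0.20, 0.0177), and it was 0.08 without WT replicate 1 and 0.09 with GC and length offsets.

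GLI3 (ENSG00000106571.12, chromosome 7, 41960950 to 42237870, minus strand) had 145.5, 148.2 and 149.9 CPM in ZFmut, against 130.3, 139.7 and 141.2 CPM in WT. The groups did not overlap, and the difference of 0.11 ± 0.05 had a 95% interval of -0.0015 to 0.22 (edgeR adjusted p = 0.117). With GC and length offsets it was 0.17 and passed (edgeR adjusted p = 0.00237). Transcript levels say nothing of how much GLI3 protein was cut into its repressor form.

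The co-receptors BOC and GAS1, cell-surface proteins that present ligand to PTCH1, did not pass. BOC (ENSG00000144857.14, chromosome 3, 113211003 to 113287459, plus strand) had 30.7, 32.0 and 29.9 CPM in ZFmut, against 28.6, 32.0 and 30.5 CPM in WT. The groups overlapped, and the difference of 0.015 ± 0.065 had a 95% interval of -0.12 to 0.15 (edgeR adjusted p = 0.882). GAS1 (ENSG00000180447.6, chromosome 9, 86944363 to 86947189, minus strand) had 53.1, 63.6 and 64.6 CPM in ZFmut replicates 1 to 3, against 58.6, 75.2 and 71.3 CPM in WT replicates 1 to 3. Its lowest library was replicate 1 in each group, as for SMO and GLI2. The difference was -0.18 ± 0.09 with a 95% interval of -0.36 to 0.01 (edgeR adjusted p = 0.136). It passed with GC and length offsets (-0.27, edgeR adjusted p = 0.00104) and without WT replicate 1 (-0.26, 0.0117), and it was -0.08 without ZFmut replicate 1 and -0.10 without WT replicate 2.

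**Figure D2:**
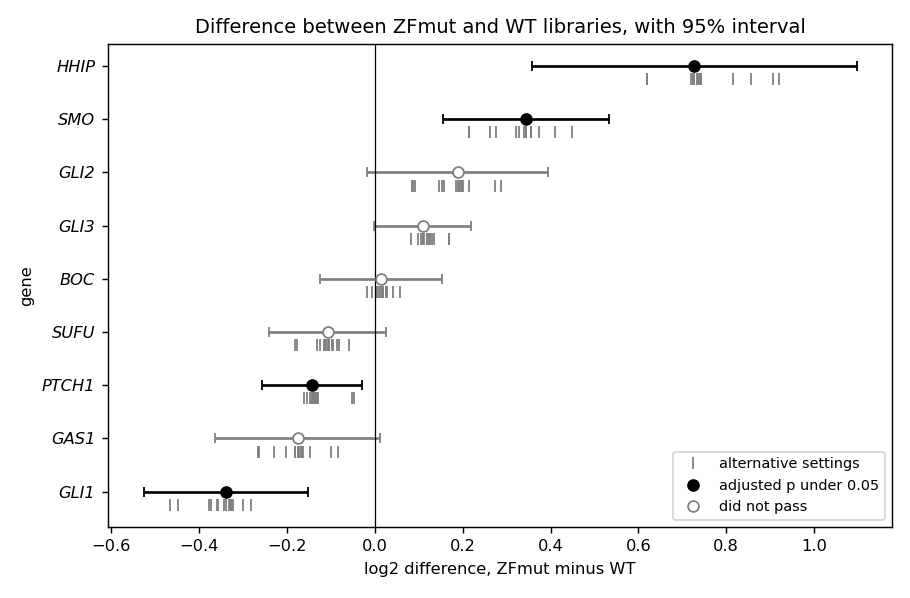
Log2 difference (ZFmut minus WT, x axis) of each gene (y axis), with circles for the fit over all 6 libraries and whiskers for its 95% interval, and grey ticks for the same difference under the alternative settings. The intervals of HHIP and SMO lie above 0 and those of GLI1 and PTCH1 below 0, while BOC is centred near 0.

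Levels can be set beside each other once they are divided by length, here as TPM over the union of a gene's exons. SMO was the most abundant, at 123.2 ± 12.3 TPM in ZFmut and 98.1 ± 10.5 TPM in WT (SD, n = 3 each), followed by GAS1 at 84.7 ± 7.55 and 96.8 ± 11.4 TPM. GLI3 came next at 53.5 ± 1.29 TPM in ZFmut and 50.1 ± 1.84 TPM in WT, then GLI2 at 26.8 ± 2.15 and 23.7 ± 3.42 TPM and SUFU at 18.0 ± 0.504 and 19.6 ± 0.631 TPM. BOC, PTCH1 and GLI1 followed, with means over the 6 libraries of 11.8, 10.9 and 9.07 TPM, and HHIP was last at 0.763 ± 0.120 TPM in ZFmut and 0.467 ± 0.0703 TPM in WT. The order SMO above GAS1 held within each of the 6 libraries, although their ranges over all libraries overlapped. GLI2 was above SUFU in 5 of 6 libraries, BOC above PTCH1 in 5 of 6 and PTCH1 above GLI1 in 6 of 6, each with overlapping ranges, so these neighbours are not separated by their spread. The steps from GAS1 to GLI3, from GLI3 to GLI2, from SUFU to BOC and from GLI1 to HHIP were larger than the spread over all 6 libraries. By mean level the transcripts that respond to the pathway, PTCH1, GLI1 and HHIP, held the last 3 places, with PTCH1 not separated from BOC.

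**Figure D3:**
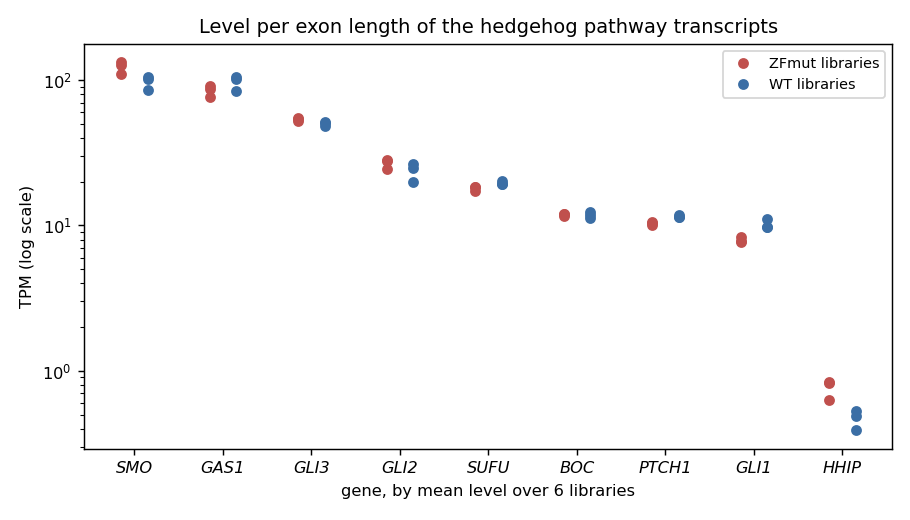
TPM (log axis) of the 9 genes in the 3 ZFmut and the 3 WT libraries, each point a library, with genes ordered by their mean over the 6 libraries. SMO and GAS1 lie near 100, PTCH1 and GLI1 near 10, and HHIP under 1.

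The ligands were scarce. SHH, the ligand of the cerebellum and of the nervous system at large, had 58, 72 and 316 reads in ZFmut replicates 1 to 3, or 2.59, 3.0 and 3.10 CPM, against 131, 250 and 124 reads in WT replicates 1 to 3, or 4.52, 4.40 and 3.92 CPM. All ZFmut values lay under all WT values, where the groups did not overlap for 47.2% of all tested genes. The SHH difference was -0.54 ± 0.13 (edgeR adjusted p = 0.00418). SHH passed in every alternative that tested it. The filter of 5 CPM in 3 libraries leaves it out. The other ligands, IHH and DHH, had 2 to 33 reads per library and were under the filter.

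Of the 9 genes of ligands and ligand release, 7 were tested, 2 were higher and 3 lower, with a median of -0.13. The called share was 71.4%, against 35.6% of all tested genes. SCUBE1, a secreted protein of a family that helps lipid-modified ligand leave the cell, was 3.67-fold higher in WT, at 4.83 ± 0.523 CPM in ZFmut and 18.4 ± 0.930 CPM in WT (-1.88 ± 0.09, edgeR adjusted p = 2.69e-09). SCUBE3 was lower by a smaller amount (-0.25 ± 0.07, edgeR adjusted p = 0.0147), a call that ended without ZFmut replicate 2 (0.0550) or WT replicate 3 (0.0523). DISP1 and DISP2 belong to the Dispatched family, of which DISP1 exports the ligand. DISP2 was higher (0.51 ± 0.10, edgeR adjusted p = 0.00138). DISP1 was too (0.29 ± 0.10, 0.0294), but not when counts were thinned to the smallest library total (0.155) or without ZFmut replicate 2, ZFmut replicate 3, WT replicate 2 or WT replicate 3 (0.0733 to 0.140), each of which left 1 higher gene in the list.

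Of 8 further genes listed as receptors and co-receptors, 7 were tested, 2 were higher and 1 lower, with a median of 0.16. The list includes DLK1, which is not a hedgehog receptor. The called share was 42.9%, against 35.6% of all tested genes. GPC6, a glypican, one of the heparan sulphate proteoglycans of the cell surface, was lower at 24.8 ± 2.10 CPM in ZFmut and 56.4 ± 3.35 CPM in WT (-1.19 ± 0.07, edgeR adjusted p = 1.64e-08). LRP2, a large endocytic receptor that binds SHH, was higher at 0.428 ± 0.0931 CPM in ZFmut and 0.173 ± 0.0444 CPM in WT (edgeR adjusted p = 0.0151), a call lost in DESeq2 (0.0571) and without WT replicate 2 (0.114). Its reads were few, at 12, 9 and 38 in ZFmut replicates 1 to 3 and 6, 7 and 6 in WT replicates 1 to 3. LRP2 passed the low-count filter through the ZFmut libraries alone, so its place among the 2 higher genes is partly owed to the filter. DLK1, a membrane protein related to the Notch ligands, was higher (0.90 ± 0.28, edgeR adjusted p = 0.0204), but not without ZFmut replicate 2 (0.0657) or WT replicate 3 (0.0884). Leaving out any of these 3 libraries left 1 higher gene. CDON, a relative of BOC, did not pass (0.16 ± 0.08, edgeR adjusted p = 0.145), and 26.7% of its exons overlap a gene on the other strand.

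Of 35 tested transducers and regulators of GLI, 5 were higher and 12 lower, with a median of -0.08. The called share was 48.6%, against 35.6% of all tested genes. With GC and length offsets, 8 were higher and 10 lower. The same offsets moved all tested genes from 3207 higher and 3442 lower to 4479 higher and 3247 lower. KIF7, the kinesin that organises the tip of the cilium and restrains GLI proteins, was higher at 31.1 ± 3.46 CPM in ZFmut and 21.7 ± 0.322 CPM in WT (0.52 ± 0.08, edgeR adjusted p = 0.000113), and 11.8% of its exons overlap a gene on the other strand. EVC, which binds SMO at the base of the cilium, was higher at 0.24 ± 0.05 (edgeR adjusted p = 0.00156), or 0.16 with GC and length offsets. IQCE, which anchors the EVC complex in the cilium, was lower at 67.2 ± 1.43 CPM in ZFmut and 105 ± 2.69 CPM in WT (-0.64 ± 0.05, edgeR adjusted p = 2.19e-07). SPOPL, a relative of the adaptor SPOP that marks GLI proteins for degradation, was lower at -0.52 ± 0.07 (edgeR adjusted p = 4.40e-05), or -0.34 with GC and length offsets. PRKAR2A, a regulatory subunit of protein kinase A, the kinase that primes GLI proteins for processing, was lower at -0.25 ± 0.05 (edgeR adjusted p = 0.00156). Without ZFmut replicate 3 or without WT replicate 3, 7 genes of this list were lower.

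Of 26 tested genes that hedgehog signalling is known to induce in one tissue or another, 9 were higher and 7 lower, with a median of -0.01. The called share was 61.5%, against 35.6% of all tested genes. SOX2, a stem cell factor, was higher at 38.7 ± 2.84 CPM in ZFmut and 21.6 ± 2.12 CPM in WT (0.84 ± 0.08, edgeR adjusted p = 1.76e-06). The forkhead genes FOXF1 and FOXL1, mesenchymal targets of one forkhead gene cluster, were higher by 0.65 ± 0.06 (edgeR adjusted p = 1.50e-06) and 0.66 ± 0.09 (4.53e-05). IGF2, a growth factor, was lower at 4.64 ± 0.250 CPM in ZFmut and 24.5 ± 2.15 CPM in WT (-2.42 ± 0.09, edgeR adjusted p = 3.15e-10), although 73.7% of the exons of this IGF2 entry are shared with other genes on the same strand, so the assignment of its reads is uncertain. HES1, better known as a target of Notch, was lower at -0.61 ± 0.05 (edgeR adjusted p = 3.97e-07), and GREM1, an inhibitor of bone morphogenetic proteins, at -0.58 ± 0.08 (7.30e-05). MYCN, amplified in some hedgehog-driven medulloblastomas, had 0 to 5 reads per library and was not tested.

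Of 40 tested genes of the primary cilium and of transport along it, 7 were higher and 10 lower (42.5% called, against 35.6% of all tested genes), with a median of -0.01. With GC and length offsets the balance turned round, to 12 higher and 7 lower. Over all tested genes it turned too, from 3207 higher and 3442 lower to 4479 higher and 3247 lower. B9D1, of the barrier at the base of the cilium, was higher at 16.2 ± 0.807 CPM in ZFmut and 9.94 ± 1.38 CPM in WT (0.70 ± 0.09, edgeR adjusted p = 5.08e-05). The transport subunits IFT122, which works in return transport, and IFT172, which works in outward transport, were higher by 0.36 ± 0.06 (edgeR adjusted p = 0.000600) and 0.36 ± 0.08 (0.00238). KIF3A, a motor subunit of outward transport, was lower at -0.33 ± 0.06 (edgeR adjusted p = 0.000973), and BBS2 and BBS7, subunits of the complex that carries membrane proteins out of the cilium, at -0.35 ± 0.07 (0.00113) and -0.38 ± 0.08 (0.00195). With GC and length offsets these were -0.16, -0.22 and -0.22, each still past the threshold. The counts moved when a library was left out. 4 were higher without ZFmut replicate 3, WT replicate 1 or WT replicate 3, where higher calls over all genes also fell, from 3207 to 2266, 2674 and 2472. 4 and 5 were lower without ZFmut replicate 3 and without WT replicate 1, where lower calls over all genes fell from 3442 to 2504 and 2825. Without ZFmut replicate 1, 12 were lower. The cause of these shifts was not tested.

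**Figure D4:**
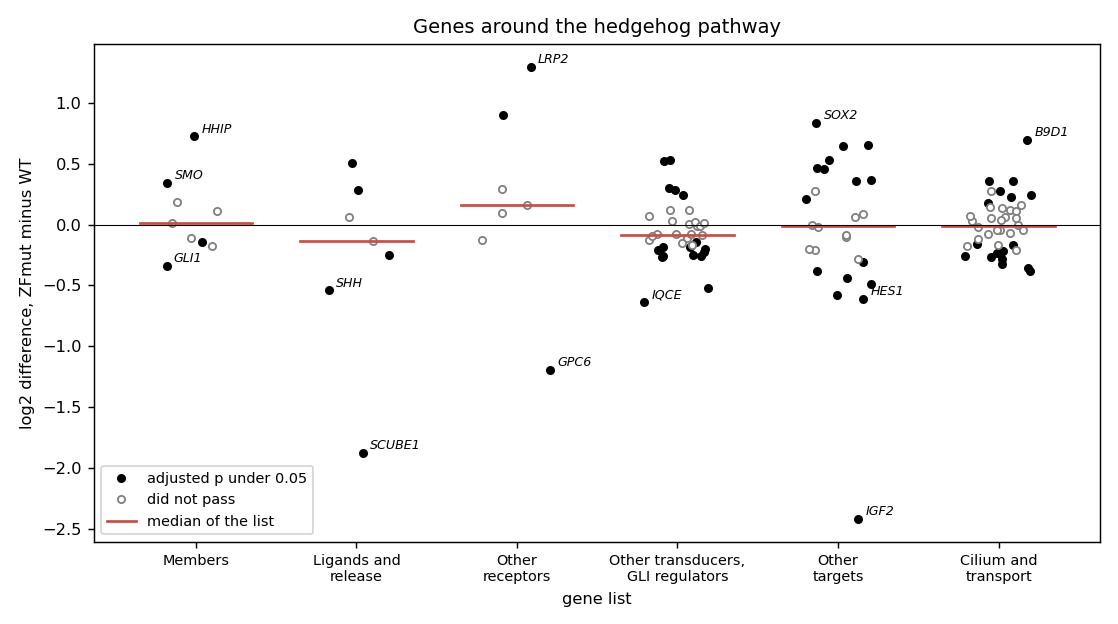
Log2 difference (ZFmut minus WT, y axis) of each tested gene in 6 lists (x axis), with filled circles for an adjusted p under 0.05, open circles for the rest and a line for the median of a list. SCUBE1, GPC6 and IGF2 lie furthest below 0, and the 9 members lie between -0.34 and 0.73.

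Among 13325 other protein-coding genes of at least 1 CPM, the log2 CPM of PCBD2, UBE2Q1 and SLC24A1 followed that of GLI1 most closely over the 6 libraries, with Pearson correlations of 0.9997, 0.998 and 0.996. PCBD2 had 11.7, 12.2 and 12.5 CPM in ZFmut, against 14.3, 14.4 and 15.9 CPM in WT. In all, 1047 of these genes had a correlation above 0.9 with GLI1. The 6 points are 2 groups of 3, and all genes share the same libraries.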

How the data were processed

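RNA of 3 ZFmut and 3 WT libraries was prepared with NEBNext Ultra reagents, a kit that leaves the strand unmarked, per the labels' protocols. The deposited values are raw read counts per gene, and the submitters' processing notes name GRCh38 and the tools HTSeq, TopHat2 2.0.9, DESeq2 and cutadapt. How strand was handled in counting, and which annotation release, is not given in the sources used here. No label states separate cultures for the replicates, so p-values reflect just the spread of these samples, possibly technical. 5 summary lines per file were left out, the largest being reads aligned to several places (16.1 to 19.4% of the total). GENCODE 29 named 94.1% of the identifiers. Chi-square tests of counts within groups gave 3.42 to 8.00 per degree of freedom, and each library was counted as 1 sample.

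Each difference was fitted by edgeR 4.0.16 under R 4.3.3 (TMM, filterByExpr, two-sided quasi-likelihood F test, no covariates, Benjamini-Hochberg adjustment over 18683 genes, biological coefficient of variation 6.27%). CPM and TPM were computed here from the deposited counts, TPM over the union of GENCODE exons. The fit was tested on simulated data with 50 changed genes at each fold size. It recovered 38% of genes changed 1.2-fold, 88% at 1.5-fold, 98% at 2-fold and 100% at 4-fold, so small differences can be missed. The alternatives were median-of-ratios and upper-quartile factors, DESeq2 1.42.0, limma-voom (limma 3.58.1), no filter, 5 CPM in 3 libraries, each library left out, a replicate block, loess offsets for GC content and exon length (span 0.5) with and without the block, thinning to the smallest total, and ZBTB7B left out. Intervals assume the moderated spread of the fit. Named genes are the members, ZBTB7B, up to 3 called genes per direction and list with the smallest p, and the 3 genes most like GLI1; some genes that this rule names are not reported here. Others (GFAP, CDON, HHIP-AS1, ligands and markers under the filter) were named after their values were seen. The members and lists were chosen with earlier results of these data known.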

Additional observations from a re-analysis of the deposited data

How the results depend on the processing

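HHIP, SMO and GLI1 kept their direction in every setting, and with all 6 libraries in the fit they kept their calls wherever they were tested. The count of members higher in ZFmut, 2, was 1 with 5 CPM required in 3 libraries, where HHIP is not tested, and 4 with a replicate block, and ranged from 1 to 3 when a library was left out. The count lower, 2, was 1 with median-of-ratios factors, upper-quartile factors, DESeq2 and no low-count filter, was 3 with the replicate block, with GC and length offsets and with both, and ranged from 0 to 2 when a library was left out. BOC changed sign without ZFmut replicate 2 or WT replicate 1, over a range of -0.017 to 0.057 when a library was left out, and never passed. Over all genes, leaving out a library gave 2266 to 3934 higher and 2504 to 3782 lower.

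Same-numbered libraries share a number only: the correlations of their deviations from the group means were 0.165, 0.0770 and 0.0635, and each library correlated best with its own number, a hint from the data and not from the design. With the replicate block, GLI2 (0.19, edgeR adjusted p = 0.000956), GLI3 (0.11, 0.0113) and GAS1 (-0.18, 0.000545) passed too, and 4226 genes were higher and 4466 lower.

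The lists were rerun in the same settings, chosen after seeing the data. Higher ligand and release genes were 1 after thinning and 1 to 2 with a library left out. Higher genes of the receptor list were 1 in DESeq2 and after thinning, 0 with the stricter filter and 1 to 2 with a library left out. Lower ones were 2 with the block. Higher GLI regulators were 8 with GC and length offsets and 9 with the block added, and lower ones were 10 and 14 there and 7 to 11 with a library left out. Lower targets were 11 with the block. Higher cilium genes were 12 with the offsets and 13 with the block added, and 4 to 7 with a library left out. Lower ones were 7 and 8 with the offsets without and with the block, and 4 to 12 with a library left out. Over all genes, the offsets gave 4479 higher and 3247 lower, and 4765 higher and 3395 lower with the block added. The causes of these shifts were not tested. In some of the settings fewer genes or libraries entered. The order of levels was the same as RPKM and with the longest transcript as length, a choice made after seeing the data. In the 250 bases before the start alone, 0.199% of windows held the GLI motif. Depth limits HHIP, with 37 to 259 reads per library, and SHH, with 58 to 316.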
